A study of Mus musculus with 16 samples.

Results

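Actins and the small proteins that bind actin monomers were followed at the RNA level in protrusions and cell bodies of mouse fibroblasts. The members were chosen by name: the 3 actin genes Actb, Actg1 and Acta2, profilin 1 (Pfn1), cofilin 1 (Cfl1) and the thymosins Tmsb4x and Tmsb10, which are 7 of the 13015 genes listed. The cells were NIH/3T3, an established mouse fibroblast line, which received either control siRNA (siControl) or siRNA against the tumor suppressor Apc (siAPC). Both were serum-starved, left for 2 h on a membrane with pores of 3 µm, exposed to lysophosphatidic acid (LPA) from the lower chamber for 1 h and fixed for 10 min in paraformaldehyde at 0.3%. Protrusions (Ps) were scraped from below the filter and cell bodies (CB) from above it, which gave 4 groups (CB and Ps with siControl, CB and Ps with siAPC) with 4 libraries each. As a model this is 1 cell line with Apc reduced rather than deleted, and cell body fractions include the nucleus.

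Actin cycles between monomers (G-actin) and filaments, and growth of filaments against the membrane pushes protrusions forward. Thymosins hold monomers in reserve, profilin hands monomers to growing filament ends, and cofilin severs old filaments and returns monomers to the pool. In fibroblasts the mRNA of β-actin is a classical example of a transcript carried to the leading edge, through a 3′ UTR element known as the zipcode that the protein Igf2bp1 (ZBP1) binds.

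Values are log2 CPM, a gene's read number on a log scale relative to an effective library size. Reads in listed genes ranged from 13466225 to 20296087 per library, and each member had between 1486 (Tmsb4x) and 55453 (Actb) reads in every library, far above the 3 reads taken as the detection floor. Apc read 2.13 to 3.54 in siControl CB against 0.54 to 1.42 in siAPC CB, and 3.29 to 3.73 in siControl Ps against 1.33 to 1.90 in siAPC Ps, without overlap in either fraction. All 8 fibroblast markers were listed, and their summed share of reads was 4.06 to 4.28% in siControl CB, 1.91 to 2.19% in siControl Ps, 5.24 to 5.60% in siAPC CB and 2.74 to 2.91% in siAPC Ps. Listed epithelial markers (2 of 4) summed to at most 0.0416%, leukocyte markers (2 of 4) to at most 0.000825%, and the 1 listed endothelial marker of 3, Pecam1, was at 0 in at least 1 siControl Ps library. Mitochondrial transcripts held 2.18 to 4.16% of reads in Ps and 1.37 to 1.95% in CB. The part of these shifts in the results was not tested. In 4 libraries (replicate 3 of siControl CB, and replicate 2 of siControl Ps and of both siAPC fractions) values relative to the group mean fell with the GC content of genes, as found in an earlier analysis of these data (Spearman correlations -0.660 to -0.542 across genes), and results that turn on them are given without them. Since these are deviations from a group mean, other libraries show the opposite sign, up to 0.541 in siAPC CB replicate 3 and 0.514 in siAPC Ps replicate 4, and those were kept.

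The sequence most often tied to protrusion targeting of this group is the β-actin zipcode, shown here because it sets Actb apart from the other members. Its core was searched as CGGAC, then 10 to 25 bases of any kind, then ACA, on the transcribed strand of 3′ UTRs. Actb held it at chr5:142903770-142903796 (GRCm38, minus strand), starting at base 2 of a 3′ UTR of 683 bases, with the searched letters in capitals.
Actb zipcode core: CGGACtgttactgagctgcgttttACA
The other 6 members did not hold these letters, and 474 of 11263 searched 3′ UTRs of listed genes did (4.21%). A match is a description of letters and not evidence of binding.

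A second element is shown for the actins that differed between siRNAs. The CArG box, bound by serum response factor (SRF), was searched on both strands in 300 bases of promoter (RefSeq, GRCm38.p6, from 250 bases before to 50 after the gene start). An exact box was present in the promoters of Actg1 and Acta1 (skeletal muscle α-actin, not a member), and Acta2 held 2 windows with 1 mismatch in the inner bases. Acta1 held 2 such windows besides, 205 and 154 bases before its gene start, which are not shown. The 4 shown lie on the minus strand, with the box in capitals.
Actg1, chr11:120348566-120348595: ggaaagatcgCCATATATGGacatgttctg
Acta2, chr19:34255438-34255467: gtgctgaggtCCCTATATGGttgtgttaga
Acta2, chr19:34255388-34255417: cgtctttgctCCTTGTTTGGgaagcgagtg
Acta1, chr8:123894829-123894858: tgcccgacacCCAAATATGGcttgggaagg
Counted from the RefSeq gene start, the boxes begin 90 bases before it in Actg1, 84 and 34 in Acta2, and 73 in Acta1. These starts differ from the GENCODE positions given for the members below. By GENCODE (chr19:34241090-34255590) both Acta2 windows lie inside the gene. Of 32851 promoters of this length, 535 (1.63%) held an exact box and 9.98% held one with at most 1 inner mismatch. Neither form was found in the promoter windows of Pfn1, Cfl1, Tmsb4x or Tmsb10. The promoters of Actb and Actg2 were not searched here.

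Which of these mRNAs were more abundant in protrusions was asked first. In control cells all 7 had higher log2 CPM in Ps than in CB, and on the deposited scaling the thymosins stood well apart. Tmsb4x was 2.76-fold and Tmsb10 2.36-fold higher, while the actins, profilin and cofilin were 1.19- to 1.37-fold higher. The gap narrowed after removal of a loess trend on GC content and transcript length. Tmsb4x was then 0.68 and Tmsb10 0.84 on the log2 scale, and the highest of the others were Actg1 and Cfl1 at 0.51 each. The differences of Actb, Actg1, Pfn1 and Cfl1 turned or failed the test under at least 1 other scaling, and those of Acta2 and the thymosins kept their direction and passed under every scaling tried. These are bulk fractions, in which fewer cells carrying a transcript and less of it per cell cannot be told apart.

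Actb, the cytoplasmic β-actin gene (chr5:142903115-142906754, minus strand), read 11.09, 11.10, 11.03 and 11.26 in siControl CB replicates 1 to 4. In siControl Ps it read 11.22, 11.27, 11.52 and 11.49. The ranges overlapped, since CB replicate 4 lay above Ps replicate 1. The difference was 0.25 ± 0.08 (SE; limma adjusted p = 0.00725), or 1.19-fold, and 35.5% of listed genes had a higher Ps/CB ratio. With siAPC, Actb read 11.28, 11.25, 11.31 and 11.23 in CB and 11.50, 11.51, 11.51 and 11.58 in Ps, where the ranges did not overlap and the difference was again 0.25 ± 0.08 (limma adjusted p = 0.00722). The transcript that carries the zipcode letters had the smallest Ps/CB ratio of the members in control cells by this measure. Scaled to total listed reads, it was -0.04 in siControl, where the median of all genes moved to -0.30, and 0.10 in siAPC, where that median moved to -0.14. After quantile normalization the Actb ratio was -0.57 in siControl and -0.41 in siAPC. After removal of a loess trend on GC content and transcript length it was 0.24 and 0.23. Under that correction Pfn1 was the lowest member instead, at -0.07 and -0.04.

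Actg1, the cytoplasmic γ-actin gene (chr11:120345690-120348542, minus strand), read 9.64, 9.55, 9.53 and 9.63 in siControl CB. Its siControl Ps values were 10.15, 9.65, 10.27 and 10.09, all above CB, with replicate 2 only just so. The difference was 0.45 ± 0.11 (limma adjusted p = 0.00135). With siAPC it read 10.14, 10.08, 10.04 and 9.95 in CB and 10.42, 10.00, 10.40 and 10.29 in Ps, where replicate 2 again lay low and within the CB range. That difference was 0.23 ± 0.11 and did not pass the test (limma adjusted p = 0.0781). Both low Ps libraries are among the 4 with the GC trend. Without these 4 the siAPC difference was 0.33 (limma adjusted p = 0.000527), without siAPC Ps replicate 2 alone it was 0.32 (0.0154), and without siControl Ps replicate 2 it stayed 0.23 and passed (0.0212). Replicates of equal number deviated together in siAPC, and with the replicate as a block the same 0.23 also passed (limma adjusted p = 0.0482). In siControl the call was lost on total reads (0.16, limma adjusted p = 0.182) and after quantile normalization (0.12, limma adjusted p = 0.245), which gave -0.30 in siAPC. Reads of Actg1 are uncertain in part, since 56.7% of its 50-base words occur in other genes, mainly the pseudogene Gm12715, whose own reads came to at most 0.529% of those of Actg1.

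Acta2, the smooth muscle α-actin gene that marks contractile fibroblasts (chr19:34241090-34255590, minus strand), read 8.03, 7.95, 7.70 and 7.76 in siControl CB. It read 8.47, 8.21, 8.31 and 8.16 in siControl Ps, above all CB libraries. The difference was 0.43 ± 0.08 (limma adjusted p = 8.01e-05), and 0.31 ± 0.08 in siAPC (limma adjusted p = 0.00168). The sign held under every scaling, with 0.13 as the siControl value on total reads and 0.41 after quantile normalization.

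Pfn1, the monomer-delivering profilin (chr11:70651850-70654644, minus strand), read 10.00, 10.06, 9.75 and 9.99 in siControl CB and 10.32, 10.17, 10.32 and 10.35 in siControl Ps. The Ps libraries were all above the CB libraries, by 0.34 ± 0.07 on average (limma adjusted p = 0.000311). With siAPC the values were 9.91, 9.79, 9.85 and 9.82 in CB against 10.13, 10.07, 10.17 and 10.23 in Ps, a difference of 0.31 ± 0.07 (limma adjusted p = 0.000807). On total reads the siControl difference was 0.04 and did not pass (limma adjusted p = 0.487). After quantile normalization the ratios were -0.12 in siControl and -0.18 in siAPC. After removal of a loess trend on GC content and transcript length they were -0.07 and -0.04, and neither passed the test. Pfn1 was the only member whose Ps/CB ratio changed direction under the loess correction.

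Cfl1, the filament-severing cofilin of non-muscle cells (chr19:5490455-5495201, plus strand), read 10.37, 10.32, 10.12 and 10.26 in siControl CB and 10.70, 10.63, 10.74 and 10.68 in siControl Ps. No Ps library fell within the CB range. The difference was 0.42 ± 0.07 (limma adjusted p = 2.03e-05). In siAPC it read 10.51, 10.40, 10.46 and 10.43 in CB and 10.77, 10.75, 10.84 and 10.93 in Ps, which differed by 0.37 ± 0.07 (limma adjusted p = 7.58e-05). Quantile normalization turned both, to -0.26 and -0.29, whereas the loess correction gave 0.51 and 0.45.

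Tmsb4x, thymosin β4 (chrX:167207093-167209315, minus strand), showed the highest Ps/CB ratio of the 7. It read 6.48, 6.58, 6.19 and 6.33 in siControl CB and 8.08, 8.01, 7.64 and 7.70 in siControl Ps, so that every Ps library was above every CB library by more than 1 log2 unit. The difference was 1.46 ± 0.10 (limma adjusted p = 6.56e-10), with 2.96% of listed genes higher. With siAPC the values were 6.92, 6.96, 6.70 and 6.93 in CB and 8.49, 8.64, 8.36 and 8.45 in Ps, a difference of 1.61 ± 0.10 or 3.05-fold (limma adjusted p = 4.09e-10). The loess correction lowered these to 0.68 and 0.82, both still past the test.

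Tmsb10, thymosin β10 (chr6:72957347-72958748, minus strand), read 9.19, 9.17, 9.04 and 9.17 in siControl CB and 10.46, 10.35, 10.32 and 10.37 in siControl Ps. Its groups were tight and far apart, with a difference of 1.24 ± 0.06 (limma adjusted p = 2.35e-11) and 4.76% of listed genes higher. With siAPC it read 9.23, 9.12, 9.13 and 9.16 in CB and 10.34, 10.51, 10.31 and 10.53 in Ps, a 2.4-fold difference of 1.26 ± 0.06 (limma adjusted p = 4.86e-11). The loess correction gave 0.84 and 0.94. Copies such as Gm9844 share part of its sequence (43.5% of its 50-base words occur elsewhere), and reads of Gm9844 came to at most 0.451% of those of Tmsb10. Tmsb4x has no shared 50-base word by this count, and Tmsb10 and Tmsb4x are short transcripts of 690 and 768 bases.

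**Figure D1:**
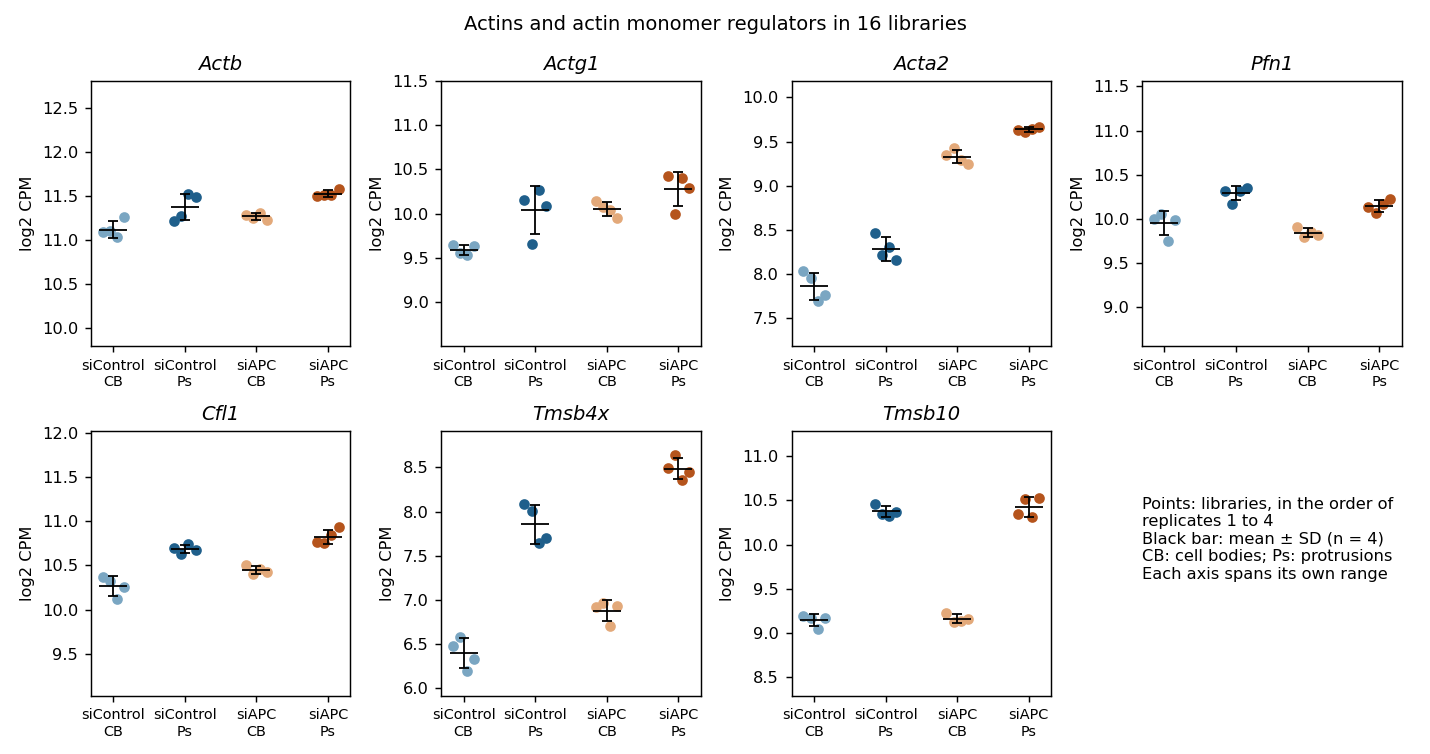
Level of each member in 16 libraries, as log2 CPM on the vertical axis of each panel, by siRNA and fraction; points are libraries and black bars are mean ± SD (n = 4). Within each siRNA the thymosins separate Ps from CB by over 1 log2 unit, and over both fractions Acta2 separates siAPC (9.25 to 9.67) from siControl (7.70 to 8.47).

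Counted over the members, 7 of 7 were higher in Ps of control cells at an adjusted p below 0.05, and 29.1% of all listed genes were. In siAPC 6 of 7 were higher, against 29.8% of listed genes. The median ratio of the members was 0.43 in siControl and 0.31 in siAPC, beside 0.00 and 0.01 over all genes. The rule for Ps enrichment used in the study (over 2-fold with an unadjusted p below 0.05) was met by Tmsb4x and Tmsb10 in both siRNA groups, and by 7.19% of listed genes in siControl and 7.67% in siAPC. After the loess correction no member met it in either siRNA group, and in siControl 1 did on total reads and 1 after quantile normalization. No member was lower in Ps by either rule, where 31.2% of listed genes in siControl and 30.9% in siAPC were lower at an adjusted p below 0.05, and 6.82% and 5.05% by the 2-fold rule. On total listed reads 4 members were higher in siControl, and after quantile normalization 3 were higher and 3 lower. Over all listed genes, calls in either direction in siControl then numbered 8198 and 7866, against 7850 on the deposited scaling. The effective library size set by the authors was 0.801 to 0.908 of listed reads in siControl Ps, 0.968 to 0.995 in siAPC Ps and 1.03 to 1.15 in CB, so the deposited scaling raises Ps values relative to total reads.

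**Figure D2:**
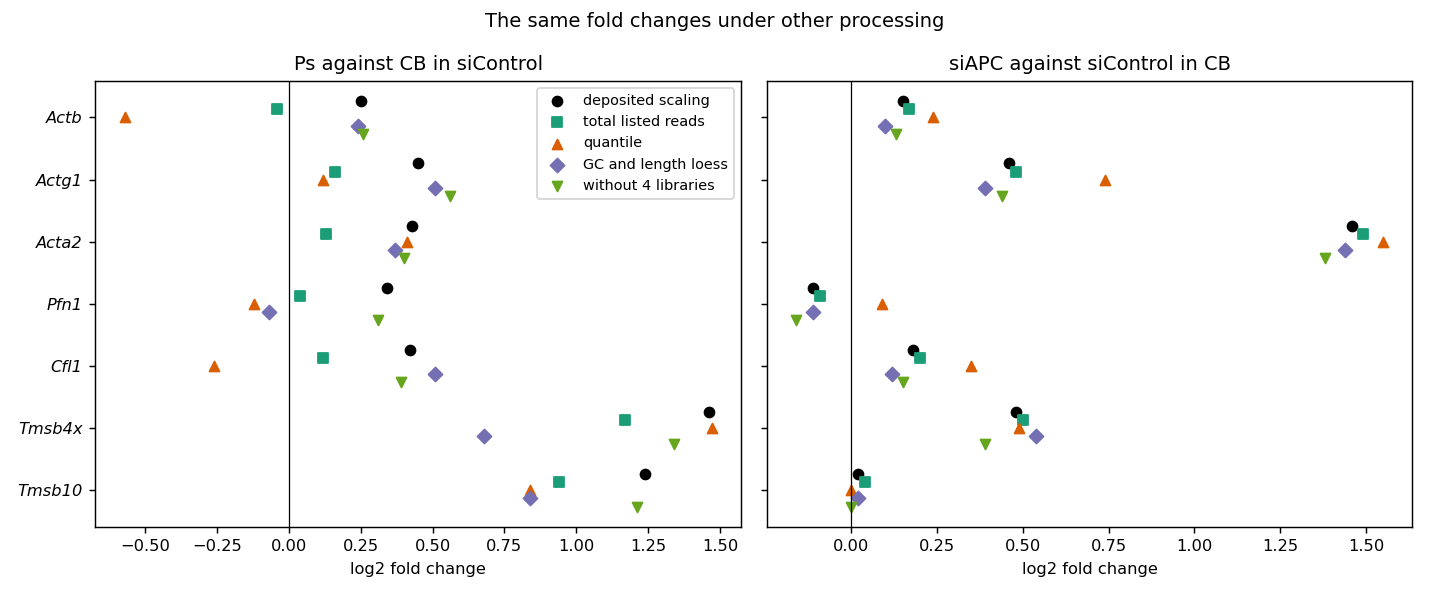
Log2 fold change (horizontal axis) of each member under the deposited scaling and 4 other settings, for Ps against CB in siControl (left) and siAPC against siControl in CB (right); "without 4 libraries" leaves out the libraries with a GC trend. On the left Actb ranges from -0.57 to 0.26 across settings while Tmsb10 stays between 0.84 and 1.24; on the right Acta2 stays between 1.38 and 1.55.

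Whether Apc knockdown changed the distribution between fractions was tested as the difference of the Ps/CB ratios, siAPC minus siControl. None of the 7 passed in limma and none had an unadjusted p below 0.05; over all genes 0% were called higher and 0.0231% lower, with 492 genes at an unadjusted p below 0.05. The change was 0.00 for Actb (95% interval -0.23 to 0.22), 0.03 for Tmsb10 (-0.16 to 0.22), -0.03 for Pfn1 (-0.24 to 0.17) and -0.04 for Cfl1 (-0.24 to 0.15). It was -0.12 for Acta2 (-0.34 to 0.11), -0.23 for Actg1 (-0.55 to 0.09) and 0.15 for Tmsb4x (-0.15 to 0.45). These intervals bound the change rather than show that it was nil. For Rab13, an RNA the study treats as localized through APC, the change was -0.43 (-0.73 to -0.13), with an unadjusted p of 0.00689 that did not pass after adjustment (limma adjusted p = 0.981).

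The level of the members within each fraction was compared next. Acta2 was the member that moved most with siAPC: its CB values of 9.35, 9.43, 9.29 and 9.25 and its Ps values of 9.63, 9.61, 9.64 and 9.67 all lay above every siControl library of either fraction. The rise was 1.46 ± 0.08 in CB (2.76-fold, limma adjusted p = 8.75e-11) and 1.35 ± 0.08 in Ps (2.55-fold, limma adjusted p = 3.36e-10). Across the alternatives shown for CB it ranged from 1.38 to 1.55. Tmsb4x rose as well, by 0.48 ± 0.10 in CB (1.40-fold, limma adjusted p = 0.00305) and 0.63 ± 0.10 in Ps (1.55-fold, limma adjusted p = 0.000166), without overlap in either fraction. Actg1 rose in CB, by 0.46 ± 0.11 (1.38-fold, limma adjusted p = 0.00648), again without overlap.

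In Ps the Actg1 difference was 0.24 ± 0.11 with overlapping groups (limma adjusted p = 0.131), though higher with siAPC in all 4 pairs of equal replicate number (limma adjusted p = 0.0608 with the replicate block). It was 0.33 without siAPC Ps replicate 2, which passed, and 0.20 after removing all 4 GC-trend libraries, which also passed. The remaining members did not pass on the deposited scaling. Actb differed by 0.15 ± 0.08 in both fractions, Cfl1 by 0.18 ± 0.07 in CB and 0.14 ± 0.07 in Ps, Tmsb10 by 0.02 and 0.05 with an SE of 0.06, and Pfn1 by -0.11 and -0.14 with an SE of 0.07. In all, 3 of 7 members were higher with siAPC in CB (7.52% of listed genes) and 2 of 7 in Ps (10.7%). None was lower, against 5.87% of listed genes in CB and 11.2% in Ps. Cfl1 in CB, whose groups did not overlap, passed on total reads (0.20, limma adjusted p = 0.00905) and after quantile normalization (0.35, limma adjusted p = 2.72e-05), which made 4 of 7 higher there. Over all listed genes, calls in either direction in CB then numbered 1760 and 1947, against 1743 on the deposited scaling. The count in Ps moved with scaling: on total listed reads, which moved the median of all genes to 0.14, and after quantile normalization, 6 members were higher. Calls over all listed genes in Ps numbered 3493 and 2889 in those settings, against 2857 on the deposited scaling. After the loess correction such calls numbered 2964 in CB and 4196 in Ps. These totals were not split by direction.

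**Figure D3:**
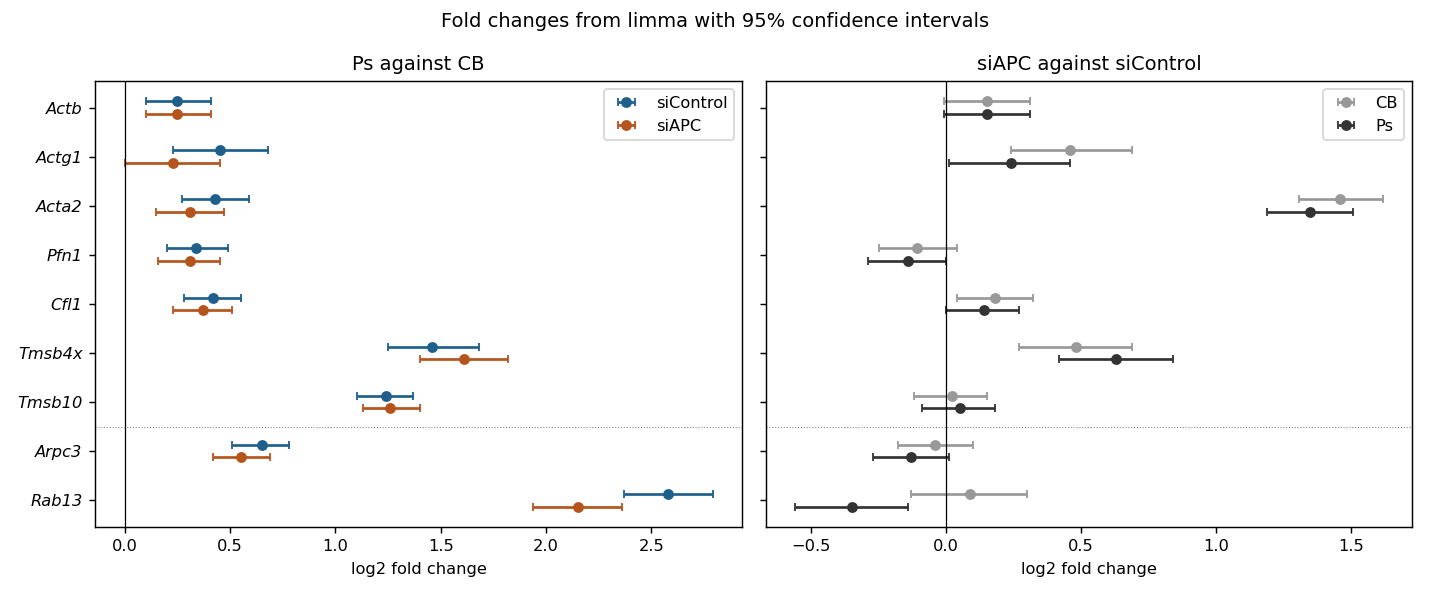
Log2 fold change on the horizontal axis with its 95% confidence interval from limma, for Ps against CB in each siRNA group (left) and siAPC against siControl in each fraction (right); Arpc3 and Rab13, below the dotted line, are reference genes. The thymosins lie between the reference Arpc3 (0.65 and 0.55) and Rab13 (2.58 and 2.15) on the left, and Acta2 lies apart on the right at 1.46 and 1.35.

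The muscle actins that are not members were raised with Acta2. Acta1 had 38 to 101 reads in siControl and 233 to 341 in siAPC libraries, and rose by 2.10 ± 0.19 in CB (4.29-fold, limma adjusted p = 2.5e-07). Actg2, enteric smooth muscle γ-actin, had 21 to 37 reads in siControl and 59 to 114 in siAPC, and rose by 1.37 ± 0.17 in CB (2.58-fold, limma adjusted p = 1.55e-05). Among 5 listed smooth muscle contractile genes 3 were higher with siAPC in CB and none lower (7.52% and 5.87% of listed genes), with Myl9, a myosin regulatory light chain, at 1.38 ± 0.08 and Tagln (SM22) at 1.27 ± 0.26. That list includes Actg2. Tagln was low in reads, with 11 to 19 per siControl CB library and 26 to 42 per siAPC CB library. Myl9 had 290 to 347 and 698 to 986 reads there. Des (desmin) stood at 0.20 and Smtn (smoothelin) at 0.01, neither past the test. In CB 3 of 5 were also higher on total reads, after quantile normalization and after the loess correction. In Ps 3 of 5 were higher and none lower (10.7% and 11.2% of listed genes), 2 were higher after quantile normalization, and 3 were higher and 1 lower after the loess correction.

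Ratios of members within a library do not depend on a scaling factor between libraries and were compared by an exact two-sided permutation test, 4 libraries against 4, whose smallest p is 0.0286, with adjustment over 6 pairs. This test ignores the replicate numbers, although equal numbers deviated together between siAPC Ps and CB and between the Ps groups. An exact paired test on 4 pairs cannot go below p = 0.125, and it gave 0.125 for every ratio in those comparisons that passed the unpaired test. The log2 ratio of Acta2 to Actb rose from -3.26 ± 0.20 (SD) to -1.94 ± 0.09 in CB and from -3.08 ± 0.25 to -1.89 ± 0.02 in Ps with siAPC (exact permutation p = 0.0286 for each, adjusted p = 0.0429 and 0.0343). Within the cytoplasmic actins, Actb to Actg1 fell from 1.53 ± 0.08 to 1.22 ± 0.07 in CB (exact adjusted p = 0.0429), while in Ps it was 1.33 ± 0.24 and 1.25 ± 0.20 (exact adjusted p = 0.571). Pfn1 to Cfl1 was lower with siAPC by 0.29 in CB and 0.28 in Ps (exact adjusted p = 0.0429 and 0.0343), and the Ps difference shrank to -0.16 under the loess correction, still past the test (exact adjusted p = 0.0429). Neither gene passed the test alone on the deposited scaling. Tmsb4x to Tmsb10 was higher with siAPC by 0.46 in CB and by 0.58 in Ps (exact adjusted p = 0.0429 and 0.0343).

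Between fractions, Actb was compared with the references in the same way. The Actb to Rab13 ratio was 5.04 ± 0.38 in siControl Ps and 7.37 ± 0.10 in siControl CB, a difference of -2.33 (exact permutation p = 0.0286, adjusted p = 0.0857). Against Arpc3, an Arp2/3 subunit mRNA treated by the study as diffuse, Actb was also lower in Ps, at 3.54 ± 0.23 against 3.93 ± 0.13, a difference of -0.39 (exact permutation p = 0.0286, adjusted p = 0.0857), and by -0.30 in siAPC (exact adjusted p = 0.0429). No library overlapped in these comparisons, and the Arpc3 direction turned under the loess correction, to 0.17 in siControl and 0.23 in siAPC. Tmsb4x to Tmsb10 was higher in Ps by 0.23 in siControl (exact adjusted p = 0.171) and by 0.35 in siAPC (exact adjusted p = 0.0429), and turned to -0.16 and -0.12 under the loess correction.

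Reads per kilobase of the principal transcript were then summed to describe the composition of the actin and thymosin pools. The values depend on the transcript used. For Actg1 the shortest coding transcript tagged basic has 876 bases in place of 1952, and for Actb 1242 in place of 1920. Part of the sequence of Actg1 and of Tmsb10 also occurs in other genes. The reads entered without the loess correction, which lowered the thymosin Ps/CB differences. Of the reads per kilobase in 5 listed actins, Actb held 69.3 ± 1.46% (SD, n = 4) in siControl CB and 59.6 ± 1.15% in siAPC CB. Acta2 held 6.87 ± 0.797% and 14.6 ± 0.650% there, and 7.42 ± 1.06% and 15.2 ± 0.330% in Ps. Actg1 held 22.3 to 29.1% in siControl Ps and 21.5 to 26.8% in siAPC Ps, its widest ranges. Thymosin reads per 100 actin reads, both per kilobase, were 55.5 ± 2.68 in siControl CB against 108 ± 14.7 in siControl Ps, and 45.5 ± 1.95 against 95.5 ± 9.56 with siAPC. The thymosin ratios of siControl Ps and siAPC Ps overlapped (exact permutation p = 0.2), although the siAPC value was lower in all 4 pairs of equal replicate number (exact paired p = 0.125, the smallest that 4 pairs allow). None of 32 comparisons of such shares passed the adjusted threshold of 0.05; the smallest exact permutation p that 4 against 4 allows, 0.0286, gave an adjusted p of 0.0508. Tmsb4x made up 11.8 ± 0.914% of thymosin reads per kilobase in CB and 13.6 ± 1.49% in Ps of siControl, and 15.6 ± 1.07% and 19.0 ± 1.12% with siAPC, with Tmsb10 the rest. The 7 members together held 0.656 ± 0.0173% of listed reads in CB and 0.744 ± 0.0561% in Ps of siControl, and 0.783 ± 0.00897% and 0.947 ± 0.0270% with siAPC.

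**Figure D4:**
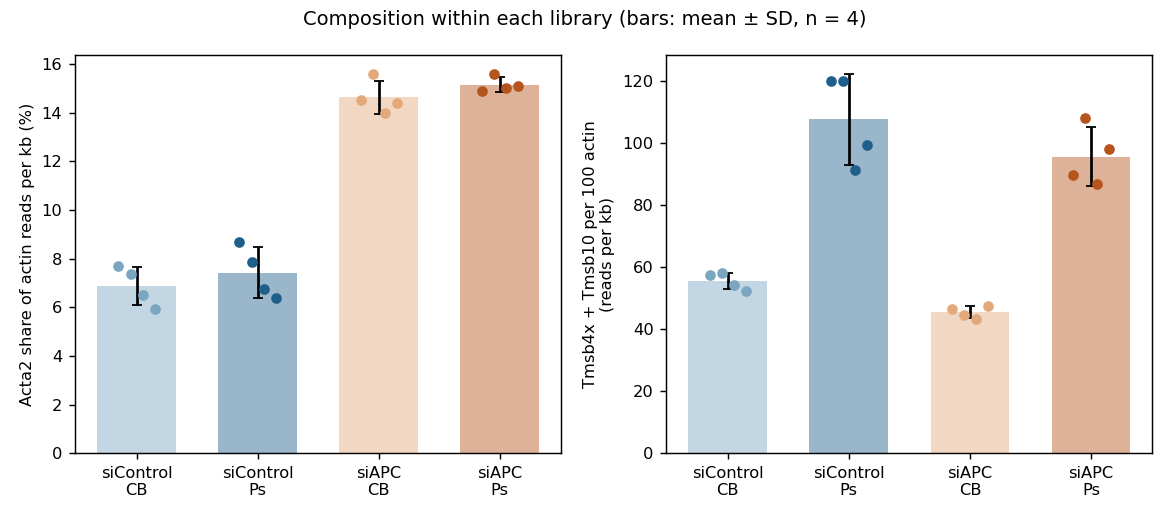
Share of Acta2 in actin reads per kilobase, in percent (left), and Tmsb4x plus Tmsb10 reads per 100 actin reads, both per kilobase (right), by group; bars are means, whiskers SD and points libraries (n = 4). The Acta2 share separates siRNAs (5.95 to 8.70% against 14.0 to 15.6%), and the thymosin ratio separates fractions (43.4 to 58.1 against 86.6 to 120).

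Levels were ordered per kilobase (log2 CPM per kb of the principal transcript). In siControl CB the order was Actb 10.18 ± 0.10 (SD), Pfn1 10.17 ± 0.14, Tmsb10 9.67 ± 0.07, Cfl1 9.04 ± 0.11, Actg1 8.62 ± 0.05, Acta2 6.84 ± 0.16 and Tmsb4x 6.78 ± 0.17. Actb and Pfn1 did not differ beyond their spread, nor did Acta2 and Tmsb4x. In siControl Ps Tmsb10 came first at 10.91 ± 0.06, before Pfn1 at 10.51 ± 0.08 and Actb at 10.43 ± 0.15, which were within their spread of each other. Next came Cfl1 at 9.45 ± 0.05, Actg1 at 9.08 ± 0.27, Tmsb4x at 8.24 ± 0.22 and Acta2 at 7.26 ± 0.14. In siAPC CB the order was Actb 10.33 ± 0.04, Pfn1 10.06 ± 0.05, Tmsb10 9.69 ± 0.05, Cfl1 9.22 ± 0.05, Actg1 9.09 ± 0.08, Acta2 8.30 ± 0.08 and Tmsb4x 7.26 ± 0.12, so that Acta2 moved clear of Tmsb4x. In siAPC Ps it was Tmsb10 10.96 ± 0.12, Actb 10.58 ± 0.04, Pfn1 10.37 ± 0.07, Cfl1 9.59 ± 0.08, Actg1 9.31 ± 0.19, Tmsb4x 8.87 ± 0.12 and Acta2 8.61 ± 0.03. The order rests on the transcript used: with the shortest coding transcript tagged basic in GENCODE, Cfl1 in siControl CB was 10.65 and stood beside Pfn1 at 10.67 and Actb at 10.81.

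Other genes of the actin cycle were then counted by list in control cells, Ps against CB, where 29.1% of all listed genes were higher and 31.2% lower. Calls over all genes in either direction numbered 7850 there. They numbered 8198 on total reads, where the median of all genes moved to -0.30, 7866 after quantile normalization and 7078 after the loess correction. Those totals are not split by direction, so list counts in these settings have no such share beside them. Of 9 listed genes of monomer binding and filament turnover, 7 were higher and none lower (median 0.54), and on total reads 4 were higher and 2 lower. The paralogs among them were Dstn (destrin) at 0.75 ± 0.06, Cfl2 (muscle cofilin) at 0.70 ± 0.10 and Pfn2 at 0.55 ± 0.09. Gmfb, which debranches actin networks, was highest at 1.02 ± 0.13. Cap1, which recharges monomers with nucleotide, was lowest of those called at 0.20 ± 0.06, and turned to -0.10 on total reads and -0.01 after quantile normalization. Both other listed actins were higher in Ps, Actg2 by 0.92 ± 0.17 and Acta1 by 0.85 ± 0.19.

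Genes that fold and mature actin were mostly higher in Ps. Of 16 listed subunits of the chaperonin CCT, of prefoldin and of actin-modifying enzymes, 14 were higher in Ps and 1 lower in siControl (median 0.63), and 12 and 1 in siAPC (median 0.56). Pfdn1, a prefoldin subunit, was highest at 1.2 ± 0.08, and Nat6, the actin N-acetyltransferase, was the one lower at -0.52 ± 0.11. The siControl count was 14 higher and 1 lower after quantile normalization, 9 and 2 on total reads, and 11 and 3 of 15 after the loess correction. With siAPC in CB 2 of 16 were lower (5.87% of listed genes), Cct2 at -0.21 and Cct6a at -0.24, and none higher. In Ps 7 of 16 were lower (11.2% of listed genes) and none higher, from Pfdn5 at -0.34 ± 0.08 to Cct6a at -0.25 ± 0.05, and on total reads 3 were higher and 3 lower. In CB the count was 4 lower on total reads, 4 after quantile normalization and 7 of 15 after the loess correction.

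Regulators of cofilin were counted next. Of 7 listed kinases and phosphatases 4 were lower in Ps of control cells and none higher (median -0.32), including the slingshot phosphatase Ssh3, which activates cofilin, at -1.14 ± 0.19 and the LIM kinase Limk2, which inhibits it, at -0.32 ± 0.09. All 7 were lower on total reads (median -0.62), where the median of all genes moved to -0.30. After quantile normalization 4 were lower (median -0.32, where Cfl1 itself was at -0.26). After the loess correction 2 were higher and 2 lower, and Limk2 was 0.07. Of 5 listed G-actin sensing genes 2 were lower, the SRF coactivators Mkl1 at -0.61 ± 0.14 and Mkl2 at -0.37 ± 0.06, and after the loess correction 1 was higher and none lower. Neither these nor the cofilin regulators held a gene past the test with siAPC in CB on the deposited scaling. After the loess correction 1 of the 5 G-actin sensing genes was lower there and none higher. In Ps 1 of the 7 cofilin regulators was lower, Limk1 at -0.34 ± 0.11 (limma adjusted p = 0.0411, where 11.2% of listed genes were lower). Limk1 did not pass on total reads, where 1 of the 7 was higher in Ps and none lower. The Ps count was 1 lower after quantile normalization and 2 lower after the loess correction, with none higher. After the loess correction Limk1 also passed in CB, at -0.37. Srf itself differed with siAPC by 0.04 ± 0.13 in CB and by -0.12 ± 0.13 in Ps, neither past the test. Of 6 factors tied to β-actin mRNA, 1 was higher and 3 lower in Ps. Igf2bp1, the zipcode-binding protein, was lowest at -0.63 ± 0.07 and Hnrnpr highest at 0.49 ± 0.16. That count turned with the setting, to 0 higher and 3 lower on total reads, 3 and 3 after quantile normalization, and 4 and 1 after the loess correction. With siAPC in CB, Igf2bp1 was 0.24 ± 0.07 higher (limma adjusted p = 0.0214), and 0.16 after the loess correction, which did not pass (limma adjusted p = 0.107). It was the 1 factor of 6 called higher there, with none lower (7.52% and 5.87% of listed genes). The list turned with the setting, to 2 higher and 0 lower on total reads and after quantile normalization, and 0 and 2 after the loess correction.

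Filament nucleators and cappers were mixed. Of 13 listed formins, Ena/VASP proteins and WH2 nucleators 3 were higher and 2 lower in Ps (median 0.02), from Fmnl2 at 0.66 ± 0.20 to Fhod1 at -0.41 ± 0.13, and 1 was higher and 5 lower on total reads, whereas 9 were higher with none lower after the loess correction, where Fhod1 turned to 0.18. With siAPC in CB 2 of these 13 were higher and 1 lower (7.52% and 5.87% of listed genes). The formin Daam2 rose by 1.87 ± 0.35 (limma adjusted p = 0.00121), on only 6 to 16 reads per siControl and 36 to 52 per siAPC library. Spire1 fell by 0.55 ± 0.14 (limma adjusted p = 0.0108). Of 13 capping and severing genes 5 were higher and 3 lower in Ps (median 0.04), from Capza2, a capping protein subunit, at 0.96 ± 0.11 to Tmod4 at -1.62 ± 0.47, a fitted value resting on 1 to 6 reads per Ps library and 8 to 19 per CB library, where the floor is 3 reads. In this list 2 were higher and 6 lower on total reads, but 9 higher and 1 lower after the loess correction. With siAPC in CB 2 of the 13 capping and severing genes were higher and none lower. Svil (supervillin) rose by 0.39 ± 0.09 and Capzb by 0.24 ± 0.06. Of smooth muscle contractile genes 4 of 5 were higher in Ps, and Smtn was lower at -0.64 ± 0.09. Tagln was highest at 1.19 ± 0.26, on only 11 to 19 reads per CB library and 14 to 30 per Ps library. The count for this list was 4 higher and 1 lower on total reads, 4 and 1 after quantile normalization, and 4 and 0 after the loess correction.

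**Figure D5:**
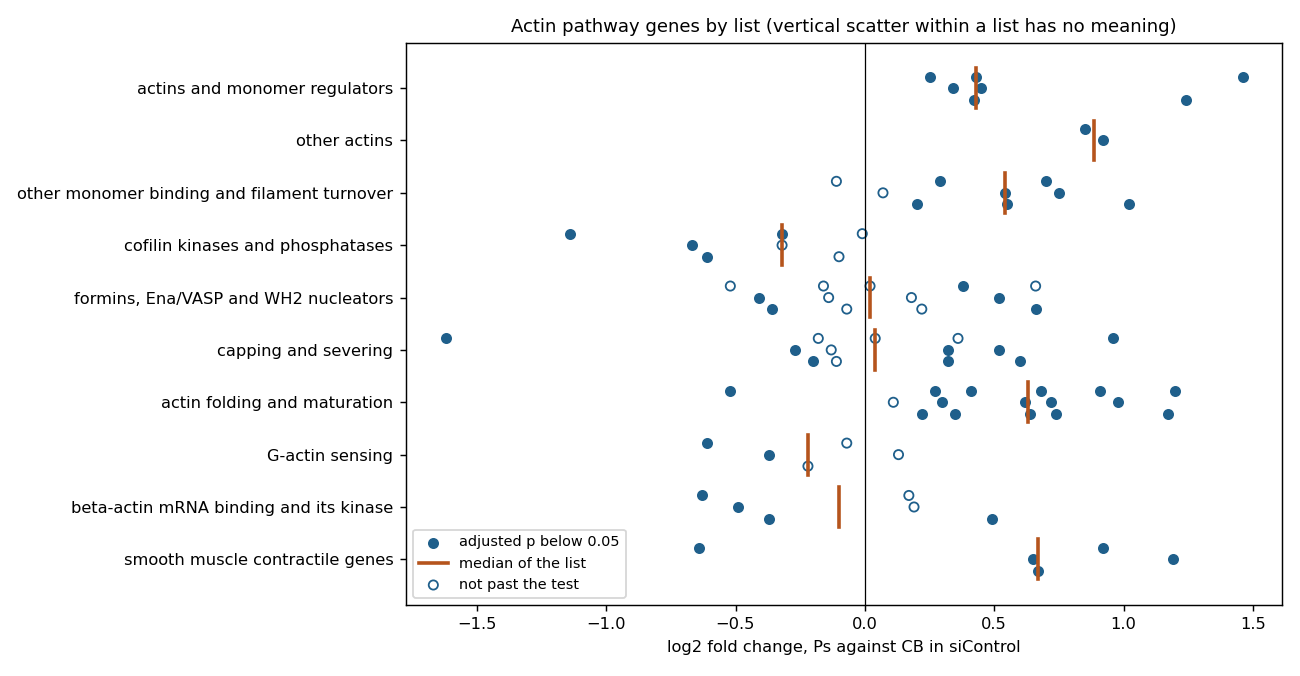
Log2 fold change of Ps against CB in siControl (horizontal axis) for the members and 9 lists of actin pathway genes; each point is a gene, filled where the limma adjusted p is below 0.05, and vertical bars are list medians. The folding list lies mostly above 0 (14 of 16 called higher), and the cofilin kinase and phosphatase list lies below it (4 of 7 called lower).

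The genes whose profile over the 16 libraries was most like each member were found by the root mean square (RMS) difference of log2 values after each gene's mean was removed, among 7832 genes. Acta2 lay nearest to Myl9 (0.135), then Prrx2 (0.176) and Rhou (0.200), against an RMS of 0.734 for the profile of Acta2 itself. Actg1 lay nearest to Cotl1, coactosin (0.122), Mtss1l (0.129) and Cnn2, calponin 2 (0.131). Cfl1 lay nearest to Myl12a (0.052), Ddx19a (0.054) and Mkrn1 (0.065), and Pfn1 to Prkcdbp (0.042), Ssna1 (0.042) and Hadh (0.044). Actb was nearest to Lrrc75a (0.068), Dnajb1 and Carhsp1 (0.070 each), where its own profile has an RMS of only 0.168. Tmsb10 was nearest to the respiratory chain genes Ndufa1 (0.074) and Ndufs4 (0.085) and to the mitochondrial ribosomal gene Mrps18c (0.095), and Tmsb4x to Lsm5 (0.229), Myl6b (0.248) and Rpl22l1 (0.267), against an RMS of 0.830 for its own profile. Among the members, Actb and Cfl1 differed by an RMS of 0.110, and Actb and Tmsb4x by 0.703.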

How the data were processed

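RNA of Ps and CB fractions was sequenced in 16 libraries (4 per group, described by the study as independent replicates). Per the sample labels and the submitters' processing notes, reads were aligned to mm10 with STAR 2.4.2a, counted per gene and normalized with limma-voom (limma 3.26.1). The values deposited by the authors are log2 CPM with 0.5 reads added, relative to an effective library size, and inverting this formula gave whole reads (within 0.01) for 100% of 208240 values. Whether counting used strand is not stated; no listed gene overlaps a member.

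The members and lists were chosen with earlier results of these data known. Tests used limma 3.58.1 in R 4.3.3 (linear model and empirical Bayes step with a mean trend) over all 13015 genes and 16 libraries, with 1 mean per group, no block and Benjamini-Hochberg adjustment over all genes; calls used an adjusted p below 0.05. The script was tested on simulated data. Named genes were the members, Apc, Rab13, Arpc3, paralogs, the highest and lowest called gene of each list in Ps against CB in siControl and in siAPC against siControl in CB, and the 3 nearest profiles among genes with a mean of at least 3. Pdgfrb, Fn1, Col1a1 and Col1a2 (closing section), Vim, Des, Srf and, in Ps with siAPC, Pfdn5, Cct6a and Limk1 were named after their values were seen. Members' positions and lengths came from GENCODE M21 (GRCm38), which matched 98.9% of listed genes and is not the release the authors used.

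Alternatives were scaling to total listed reads, quantile normalization, voom weights, a filter at a mean log2 value of 1, a replicate block, removal of a GC and length trend, and leaving out libraries; the exact paired tests of ratios and shares and the scalings of the fibroblast marker list were chosen after seeing the data. Equal replicate numbers deviated together in siAPC Ps and CB (correlations 0.416 to 0.617 over 10292 genes, with pairing from the numbers in the labels) and in Ps of both siRNAs (0.162 to 0.551). In the other comparisons replicates 1 and 4 did (0.256 to 0.432) and replicates 2 and 3 did not (-0.336 to -0.121), so those were not taken as paired. Labels give no sequencing batch.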

Additional observations from a re-analysis of the deposited data

Results flagged for a closer look

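In 28 sets of 4 libraries (7 members in 4 groups), 2 held a library far from the others, where chance gives about 1 in 20. Tmsb4x read 6.70 in siAPC CB replicate 3, with the nearest library at 6.92. Tmsb10 read 9.04 in siControl CB replicate 3, with the nearest at 9.17. Values relative to the group mean were correlated with GC content across genes in both libraries, positively in the first (Spearman 0.541) and negatively in the second (-0.542); the part of this in the results was not tested. Both values lie below their group, and both members kept their calls without these libraries.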

How the results depend on the processing

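Over 35 member results and 7 alternatives other than leaving out 1 library, 209 of 245 values kept their direction and side of the threshold, 4 lost significance, 15 gained it and 17 changed direction. Ps/CB ratios changed direction after quantile normalization for Actb (-0.57 siControl, -0.41 siAPC), Pfn1 (-0.12, -0.18), Cfl1 (-0.26, -0.29) and Actg1 (-0.30, siAPC), on total reads for Actb (-0.04, siControl), and after the GC and length loess for Pfn1 (-0.07, -0.04). Some values that passed no test also changed direction: the change of the Ps/CB ratio with siAPC on total reads for Acta2 (0.02), Pfn1 (0.11) and Cfl1 (0.10) and after loess for Pfn1 (0.02), and Pfn1 with siAPC in CB after quantile normalization (0.09) and in Ps on total reads (0.02) and after quantile normalization (0.03). Higher members in siControl numbered 4 on total reads and 3 (with 3 lower) after quantile normalization, and in siAPC 3 (with 4 lower) after quantile normalization. Over all listed genes, calls in either direction in siAPC then numbered 8083, against 7901 on the deposited scaling. By the 2-fold rule 1 member passed in siControl on total reads, 1 after quantile normalization and 0 after loess, and in siAPC 0 after loess. With siAPC in Ps, 6 were higher on total reads and 6 after quantile normalization, and 1 was lower (Pfn1, -0.15) without the 4 libraries with a GC trend. Within-library ratios changed under loess. In siAPC, Ps against CB, Pfn1 to Cfl1 went from -0.06 to -0.49 and Actb to Rab13 from -1.89 to -1.64. Both calls were lost (exact adjusted p from 0.0429 to 0.0571), although the difference of Pfn1 to Cfl1 grew. The adjusted p turns on how many of the 6 pairs reach the smallest exact p, 0.0286. A lost call here is therefore no measure of a smaller difference. In the same siAPC comparison Tmsb4x to Tmsb10 was -0.12, Actb to Arpc3 0.23 and Actb to Actg1 -0.05. In siControl, Pfn1 to Cfl1 went from -0.07 to -0.58, Tmsb4x to Tmsb10 was -0.16 and Actb to Arpc3 0.17. With siAPC in Ps, Actb to Arpc3 went from 0.28 (exact adjusted p = 0.0343) to 0.18 (exact adjusted p = 0.206). The cause of these changes was not tested.

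Leaving out 1 library at a time kept 554 of 560 member results; in 3 Actg1 gained significance (siAPC Ps/CB, and siAPC against siControl in Ps), and 3 that passed no test changed direction. These were the change of the Ps/CB ratio of Pfn1 (-0.07 to 0.03) and Tmsb10 (-0.01 to 0.07), and Tmsb10 with siAPC in CB (-0.02 to 0.03). Counts of higher members then ranged from 6 to 7 in siAPC Ps/CB and from 2 to 3 for siAPC in Ps. With the replicate block, Actg1 Ps/CB in siAPC (0.23) passed, and no other member call changed. Count models on recovered reads (edgeR and DESeq2) were not run, because the deposited unit is a log2 value; voom weights on those reads stood in. Each member had 1486 reads or more in every library.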

Other observations

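Genes listed as fibroblast markers differed between fractions in both directions. In control cells 5 of 8 were lower in Ps and 2 higher (median -1.24; 31.2% and 29.1% of listed genes), with Col1a1 at -1.33 ± 0.11, Col1a2 at -1.46 ± 0.09 and Fn1 (fibronectin) at -1.21 ± 0.10, whereas Vim (vimentin), a cytoskeletal filament gene, was higher by 0.81 ± 0.08. The count was 2 higher and 5 lower on total reads, 0 and 6 after quantile normalization, where Vim was 0.07 and did not pass, and 1 and 5 after the loess correction. With siAPC in CB 4 of 8 were higher and none lower (7.52% and 5.87% of listed genes), led by Pdgfrb, the platelet-derived growth factor receptor β, at 1.05 ± 0.10 (limma adjusted p = 4.67e-07), and Fn1 at 0.58 ± 0.10 (limma adjusted p = 0.000395).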
